A study of Homo sapiens with 8 samples.

Results

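Most of the genes described here encode the general machinery that RNA polymerase II needs at promoters. They were taken from GENCODE release 44 as every protein-coding gene whose symbol begins with MED, TAF or GTF2A, GTF2B, GTF2E, GTF2F or GTF2H, with a number after MED or TAF. This gave 81 of 20033 protein-coding genes, of which 30 were in the Mediator group, 37 in the TAF group and 14 in the GTF2 group. The measurement was where HA-tagged PHF20 and PHF20L1 sat on chromatin in U2OS, a human osteosarcoma cell line. PHF20 and PHF20L1 are related Tudor-domain proteins found with the lysine acetyltransferase KAT8 in the NSL (nonspecific lethal) complex. In HA ChIP-Seq, an antibody to the HA tag isolates the DNA bound by the tagged protein, and the sequenced DNA is compared with an input library made without the antibody. PHF20 was overexpressed with 3xHA at the N terminus (2 ChIP libraries and 1 input library), and PHF20L1 with 3xHA at the N terminus (1 ChIP library) or the C terminus (2 ChIP libraries), with 2 input libraries. The cells were sorted for GFP before library preparation, to enrich for HA according to the paper. Because the antibody was to the HA tag, the lists describe ectopic, tagged proteins and not the endogenous ones. The authors combined the replicates into 1 final peak list per protein, which gives the start and end of each peak without height or read count. No value per replicate was therefore available for any gene, and the 95% intervals below cover counting error over genes only.

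RNA polymerase II cannot find a promoter by itself. TFIID, made of the TATA-binding protein TBP and TAF subunits, contacts core promoter DNA, and TFIIA, TFIIB, TFIIE, TFIIF and TFIIH then help to place the polymerase and open the DNA. Mediator carries signals from activators on distant DNA to this assembly. Its head and middle modules contact the polymerase, its tail contacts activators, MED14 joins the modules, and a separable kinase module controls its contact with the polymerase.

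A gene was called bound when a peak overlapped its promoter window, the 1000 bp before and the 500 bp after any annotated transcription start site (TSS). PHF20 was found at 30 of the 81 genes (37.0%, Wilson 95% interval 27.3% to 47.9%), beside 20.7% of all protein-coding genes. The share was 43.3% in the Mediator group (13 of 30 genes, 27.4% to 60.8%), 27.0% in the TAF group (10 of 37, 15.4% to 43.0%) and 50% in the GTF2 group (7 of 14, 26.8% to 73.2%). The background share lay below the interval of the Mediator and GTF2 groups and inside that of the TAF group. Beside genes with a CpG-rich promoter, of which PHF20 was at 28.6%, the background lay inside the interval of each group. The shares were then 44.4% in the Mediator group (12 of 27, 27.6% to 62.7%), 36.0% in the TAF group (9 of 25, 20.2% to 55.5%) and unchanged in the GTF2 group, whose promoters are all CpG-rich by the criterion given with the promoter composition. The TAF group contains 13 TAF11L genes, a cluster of TAF11-like copies on chromosome 5 of which none had a peak. Without them the TAF share was 41.7% (10 of 24, 24.5% to 61.2%). The groups could not be separated from each other. The Mediator share was 16.3 percentage points above the TAF share (Newcombe 95% interval -6.26 to 37.3), and 1.67 points above it without the TAF11L genes (-23.5 to 26.2). The GTF2 share was 6.67 points above the Mediator share (-22.4 to 34.8) and 22.97 points above the TAF share (-5.18 to 48.9).

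PHF20L1 was found at 6 of the 81 genes (7.41%, 3.44% to 15.2%), beside 3.82% of all protein-coding genes, a background that lies inside the interval. The 6 genes were MED28, TAF11, TAF12, TAF6L, GTF2H1 and GTF2H3. All of these except TAF6L also had a PHF20 peak, so that 5 genes were bound by both (6.17%, 2.67% to 13.6%), beside 3.73% of all genes. Because PHF20 was listed at many more promoters than PHF20L1, the lists as a whole differ in length, and the absence of a gene from the shorter list shows only that it was not called there.

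**Figure D1:**
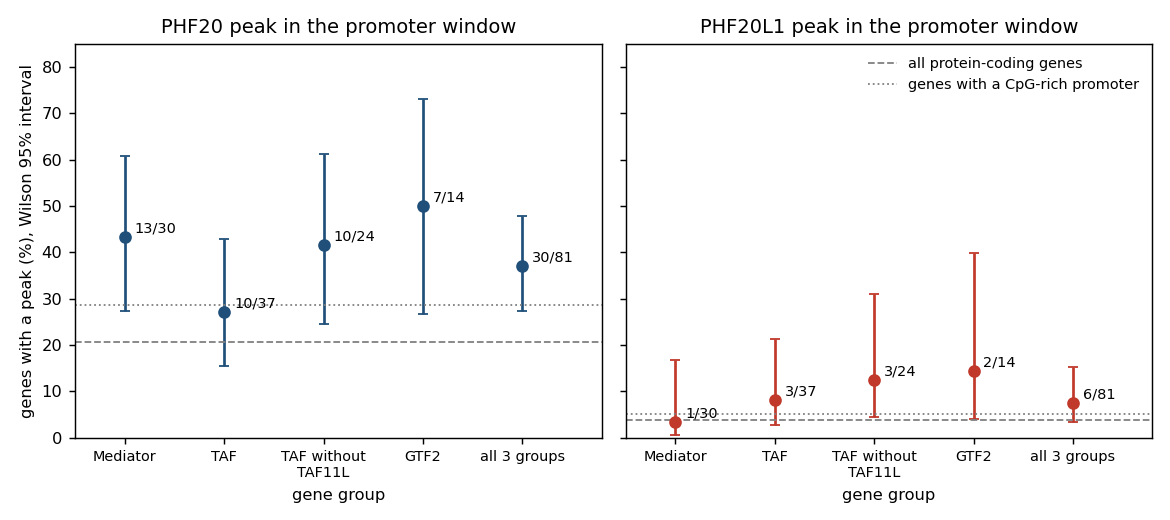
Percent of genes with a PHF20 peak (left) or a PHF20L1 peak (right) in the promoter window, by gene group on the x axis. Points are shares with the number bound of the number of genes, bars are Wilson 95% intervals, the dashed line is the share of all protein-coding genes and the dotted line that of genes with a CpG-rich promoter. The TAF point for PHF20 rises from 27.0% to 41.7% without the TAF11L genes, and the intervals of the groups overlap for both proteins.

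The sequences under these peaks were searched for short words that known promoter factors recognize, on both strands. The 8 letters ACTTCCGG, the core recognized by ETS family factors, were present in 11 of the 32 PHF20 peaks (34.4%), each at a different gene, beside 17.6% of all 3562 PHF20 peaks at coding promoters. This was 1 of 9 words searched, and the SP1 word (GGGCGGG) went the other way, at 37.5% of the 32 peaks beside 54.7%. The 32 peaks were also wider, with a median of 720 bp beside 635 bp, and so held more sequence each. A match describes the letters and does not show that a factor binds. The ETS sites of 10 of the 11 genes, 1 each, are printed below with 11 bases on each side. They mark where in the peaks of Mediator, TAF and TFIIH genes the ETS word lies. Each is written 5′ to 3′ on the strand named, in hg38, and the capitals are the matched word.
MED18 chr1:28329008-28329037, minus strand: ctcctcttctcACTTCCGGtcggaagccga
MED15 chr22:20507551-20507580, plus strand: agccctccttcACTTCCGGctcggccgagg
MED29 chr19:39391387-39391416, plus strand: agtcgtaacgcACTTCCGGcggtctacgcg
TAF12 chr1:28643075-28643104, plus strand: cctccccgactACTTCCGGcaccgctcccc
TAF13 chr1:109076007-109076036, plus strand: tccgccgcctcACTTCCGGtgacgcgcggg
TAF7 chr5:141321055-141321084, plus strand: atggcttctagACTTCCGGgtgattccggg
TAF1A chr1:222589915-222589944, minus strand: ttccagaagtcACTTCCGGggtcgaggcga
TAF1C chr16:84187045-84187074, minus strand: ccgcaggaggcACTTCCGGtccaaaccgga
GTF2H1 chr11:18322536-18322565, plus strand: cccgccttgctACTTCCGGtcacgtgccct
GTF2H3 chr12:123633665-123633694, plus strand: ctccgcaccccACTTCCGGcgcacttccgt
The sites lay close to where transcription starts. Of the 10 sites, 9 were within 100 bp of the nearest TSS, and the exception was TAF7 at -286 bp (negative numbers are upstream). Each of the 10 lay in a PHF20 peak that crossed a TSS of its gene. The distances are given without those of sites in other PHF20 peaks beside them. The word was on the gene's own strand at 6 sites and on the opposite strand at the others. In 7 of the 10 the base before the word was C.

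The genes bound by both proteins differed in how the peaks were arranged. At MED28, GTF2H1, GTF2H3 and TAF11 the PHF20L1 peak lay wholly inside the PHF20 peak. MED28, a tail subunit of Mediator, had a PHF20 peak of 922 bp (chr4:17614089-17615010) and a PHF20L1 peak of 254 bp (chr4:17614290-17614543). The MED28 PHF20L1 peak ended upstream of the TSS, with its centre at -225 bp. GTF2H1, a core subunit of TFIIH, had a PHF20 peak of 1049 bp (chr11:18321940-18322988) around a PHF20L1 peak of 350 bp (chr11:18322218-18322567). GTF2H3, another core subunit, had a PHF20 peak of 1316 bp (chr12:123633028-123634343) around a PHF20L1 peak of 384 bp (chr12:123633232-123633615). The GTF2H3 PHF20L1 peak was centred at -316 bp and did not reach a TSS of GTF2H3. TAF11, a histone-fold subunit of TFIID, had the widest PHF20 peak of the 81 genes, at 1381 bp (chr6:34887279-34888659), with a PHF20L1 peak of 357 bp (chr6:34887835-34888191) that spanned the TSS. Only at TAF11 and GTF2H1, among the 6 genes, did the PHF20L1 peak span a TSS.

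TAF12, the histone-fold partner of TAF4, was the exception to this nesting. It had a pair of PHF20 peaks, one over its canonical TSS (539 bp, chr1:28642880-28643418) and one at an alternative upstream TSS (723 bp, chr1:28648402-28649124). The PHF20L1 peak (641 bp, chr1:28648520-28649160) overlapped the upstream PHF20 peak by 605 bp, was the widest PHF20L1 peak of the 81 genes, and had its nearest edge 5453 bp from the canonical TSS. The upstream peaks of both proteins covered all 134 bp of RNU11 (chr1:28648600-28648733, plus strand), the gene of the U11 small nuclear RNA of the minor spliceosome, whose start lies 309 bp from that TAF12 TSS. Binding at the TAF12 transcript and at RNU11 cannot be told apart from positions.

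Stretches of these peaks that hold no annotated exon are printed next, to show the DNA of the genes bound by both proteins, as hg38 sequence on the gene's own strand. For GTF2H1, GTF2H3 and TAF12 the stretch lies in the PHF20L1 peak, that of TAF12 being directly beside RNU11. For TAF11 and MED28 the PHF20L1 peak held no exon-free run of sufficient length, and the stretch comes from exon-free DNA of the PHF20 peak downstream of the canonical TSS, outside the PHF20L1 peak. Capitals mark the E-box CACGTG, which basic helix-loop-helix factors recognize.
GTF2H1 chr11:18322218-18322294, plus strand: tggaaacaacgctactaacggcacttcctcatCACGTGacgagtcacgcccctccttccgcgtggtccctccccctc
GTF2H3 chr12:123633395-123633544, plus strand: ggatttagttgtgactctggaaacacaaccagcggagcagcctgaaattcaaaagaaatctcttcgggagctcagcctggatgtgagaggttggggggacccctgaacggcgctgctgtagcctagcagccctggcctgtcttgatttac
TAF12 chr1:28648734-28648883, minus strand: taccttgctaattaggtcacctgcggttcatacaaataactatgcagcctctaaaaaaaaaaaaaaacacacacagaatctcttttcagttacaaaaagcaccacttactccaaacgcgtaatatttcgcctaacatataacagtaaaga
TAF11 chr6:34887564-34887713, minus strand: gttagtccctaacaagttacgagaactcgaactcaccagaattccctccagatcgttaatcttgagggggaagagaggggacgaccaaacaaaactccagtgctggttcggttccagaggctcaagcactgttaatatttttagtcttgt
MED28 chr4:17614814-17614963, plus strand: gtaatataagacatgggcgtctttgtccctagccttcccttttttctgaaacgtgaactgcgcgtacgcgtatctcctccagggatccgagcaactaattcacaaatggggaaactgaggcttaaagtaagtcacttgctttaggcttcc
The GTF2H1 peak of PHF20L1 held 3 matches to the E-box and 1 to the ETS word, which were all of the E-box and ETS matches in the wider PHF20 peak at this gene. At MED28 the PHF20 peak held 2 E-boxes, at -72 and -46 bp, and the PHF20L1 peak held none. The PHF20L1 peaks of TAF11, TAF12, TAF6L and GTF2H3 held no match to any of the 9 words searched.

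TAF6L was found with PHF20L1 alone. It encodes a TAF6-like subunit of the SAGA coactivator complex. Its PHF20L1 peak was narrow (248 bp, chr11:62770863-62771110), ended 247 bp upstream of the nearest TAF6L TSS, and also overlapped the promoter window of a long noncoding RNA gene. The nearest PHF20 peak to a TAF6L TSS was 5449 bp away and overlapped the 3′ end of the gene. The exon-free part of the PHF20L1 peak is shown because no other of the 81 genes had this pattern, in lower case throughout since none of the 9 words matched.
TAF6L chr11:62770961-62771110, plus strand: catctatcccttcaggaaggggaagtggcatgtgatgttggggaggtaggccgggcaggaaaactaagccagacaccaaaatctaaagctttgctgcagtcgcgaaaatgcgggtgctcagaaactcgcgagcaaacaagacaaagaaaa

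Among the paralogs, PHF20 was found at both genes of 1 of 11 pairs, at 1 gene of 3 pairs and at neither gene of 7 pairs. For single genes, its share over all protein-coding genes was 20.7%. Both TAF5, the WD40 scaffold subunit of TFIID (738 bp, chr10:103367438-103368175), and TAF5L, its SAGA counterpart (377 bp, chr1:229626133-229626509), had a peak. TAF7, which binds the TFIID subunit TAF1, had a peak of 868 bp (chr5:141320393-141321260) while its germ cell paralog TAF7L had none. TAF11 had a peak and TAF11L2 did not, as did GTF2A1 (679 bp, chr14:81221172-81221850) and not its germ cell paralog GTF2A1L. PHF20 was at neither gene of TAF1 and TAF1L, TAF4 and TAF4B, TAF6 and TAF6L, TAF9 and TAF9B, MED12 and MED12L, MED13 and MED13L, or GTF2H2 and GTF2H2C. In the windows of GTF2H2 and GTF2H2C only 0% and 32.6% of 50-base words were unique in hg38, so absence there says little. The promoters of TAF7 and TAF7L are printed to show that both are GC-rich and hold the SP1 word (CCCGCCC, the reverse complement of GGGCGGG, in capitals), one with a peak and one without.
TAF7 chr5:141320785-141320909, minus strand: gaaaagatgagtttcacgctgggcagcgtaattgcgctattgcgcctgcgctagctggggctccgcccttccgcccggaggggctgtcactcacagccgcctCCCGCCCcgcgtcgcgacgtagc
TAF7L chrX:101291335-101291484, minus strand: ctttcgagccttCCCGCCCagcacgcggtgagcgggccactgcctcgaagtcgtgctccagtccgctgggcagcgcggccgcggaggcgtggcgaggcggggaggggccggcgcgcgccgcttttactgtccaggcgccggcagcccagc
CpG observed/expected, the count of CpG dinucleotides relative to that given by the base composition, was 1.07 at the TAF7 promoter and 1.13 at the TAF7L promoter. TAF7L lies on the X chromosome, as do MED12, MED14, TAF1 and TAF9B, and none of these 5 genes had a peak of PHF20, beside 5.01% of the 859 coding genes on that chromosome. The Wilson interval of 0 among 5 genes reaches 43.4%.

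The Mediator genes are ordered here by module, and each PHF20 count stands beside 20.7% of all protein-coding genes. In the head, which contacts RNA polymerase II, PHF20 was at MED6, MED8, MED18 and MED22 and not at MED11, MED17 or MED20 (4 of 7). The MED8 peak was the widest of the Mediator group (1175 bp), wider than 91.1% of the PHF20 peaks at coding promoters. The MED18 peak was nearly as wide (1120 bp, chr1:28328158-28329277). MED6 had a peak of 748 bp. The MED22 peak was narrow (298 bp, chr9:133348187-133348484), lay just upstream of MED22 and covered the start of RPL7A, the gene of a ribosomal protein.

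In the middle module, PHF20 was at MED9 (717 bp) and MED10 (503 bp) and not at MED1, MED4, MED7, MED19, MED21, MED26 or MED31 (2 of 9). MED1 contacts nuclear receptors and MED26 elongation factors, and their nearest PHF20 peaks were 9362 bp and 5869 bp from a TSS. In the tail, which contacts activators, PHF20 was at MED15, MED16, MED23, MED24, MED28, MED29 and MED30 and not at MED25 or MED27 (7 of 9, 77.8%, 45.3% to 93.7%). MED15, a target of the sterol regulator SREBP, had a peak of 579 bp. MED24 had a peak of 1081 bp (chr17:40053645-40054725) and MED23 one of 919 bp (chr6:131627530-131628448) that also reached the window of ENPP3. MED29 had a peak of 309 bp in the region it shares with PAF1, an elongation factor gene, and MED30 one of 633 bp. PHF20 was at 20.7% of all protein-coding genes and at 28.6% of those with a CpG-rich promoter. The middle and tail intervals overlapped (6.32% to 54.7% for the middle), and the modules were compared after their counts were known.

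The scaffold gene MED14 had no peak. None of the kinase module genes MED12, MED12L, MED13 and MED13L had one either, where the Wilson interval of 0 among 4 genes reaches 49.0%. CCNC, the cyclin of that module and no member of the MED family, had a PHF20 peak of 608 bp, while its kinases CDK8 and CDK19 had none.

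MED16 gave the Mediator peak farthest from a TSS of its gene. Its PHF20 peak (358 bp, chr19:893480-893837) ended 262 bp upstream of the nearest TSS, and it covered all 107 bp of RNU6-9 (chr19:893484-893590, plus strand), a gene of the U6 spliceosomal RNA, which RNA polymerase III transcribes. Whether the peak belongs to MED16 or to RNU6-9 cannot be told apart from positions. Among the 32 PHF20 peaks at the 81 genes, 4 reached the promoter window of a small RNA gene (12.5%), beside 1.91% of all PHF20 peaks at coding promoters, a class of genes chosen after these peaks were seen. The others were the upstream TAF12 peak at RNU11, the MED22 peak, whose window partner was SNORD24, and the GTF2F1 peak near MIR6790, and neither of these last peaks overlapped the small RNA itself.

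TFIID is built around pairs of histone-fold TAFs, and these differed. TAF11 and its partner TAF13 (1005 bp, chr1:109075770-109076774) both had PHF20 peaks. TAF12 had peaks while its partner TAF4 did not, and neither did the germ cell relative TAF4B. TAF6 and TAF9, which pair with each other, had none, and neither did TAF3, TAF8 and TAF10 or TAF9B. PHF20 was thus at 3 of 11 histone-fold genes, beside 20.7% of all protein-coding genes and 28.6% of those with a CpG-rich promoter. TAF8 and TAF10 had the nearest PHF20 peaks outside the window among the TFIID genes, at 1469 bp and 6218 bp. Of the other TFIID subunits, PHF20 was at TAF2, which contacts the initiator (1283 bp, chr8:119832147-119833429), TAF5 and TAF7, and not at TAF1, the largest subunit, TAF1L or TAF7L (3 of 6). TBP was counted apart, since its symbol is outside the families. It had a PHF20 peak of 1107 bp (chr6:170554070-170555176) and a PHF20L1 peak of 268 bp (chr6:170554326-170554593) inside it.

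Some TAF symbols name proteins outside TFIID. SL1 is the TBP-containing factor of RNA polymerase I. PHF20 was at 3 of its 4 TAF genes (75%, 30.1% to 95.4%), beside 20.7% of all protein-coding genes. All 4 have a CpG-rich promoter, and PHF20 was at 28.6% of all genes with such a promoter. The peak at TAF1A was 934 bp wide (chr1:222589456-222590389) and centred at 11 bp from the TSS, that at TAF1C was 588 bp, and that at TAF1B was the narrowest of all (231 bp, chr2:9842997-9843227) and ended 216 bp upstream of the nearest TSS. TAF1D had no peak. An alternative start of TAF1D lies 10 bp from a start of MED17 on the opposite strand, so that the windows of these genes overlap there. TAF15, an RNA-binding protein of the FET family, had no peak.

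Most of the TAF11L genes could not be read in the same way. The authors kept only reads that mapped to a single position, and of the 50-base words in the promoter windows of the TAF11L genes between 1.79% and 91.9% occurred only once in hg38. Under 50% of the words were unique at 10 of the 81 genes, namely TAF11L3 to TAF11L10, GTF2H2 (0%) and GTF2H2C (32.6%). Absence of a peak at these genes therefore says little. At TAF11L2 and TAF11L11 to TAF11L14 between 54.3% and 91.9% of the words were unique. Among the other 71 genes PHF20 was at 42.3% (31.5% to 53.8%) and PHF20L1 at 8.45% (3.93% to 17.2%), and the lowest unique share at a PHF20-bound gene was 84.6%. In the TAF group alone, PHF20 was at 34.5% of such genes (10 of 29, 19.9% to 52.7%).

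The GTF2 genes are ordered by the factor they build. In TFIIA, which stabilizes TBP on DNA, PHF20 was at GTF2A1 and not at GTF2A2 or GTF2A1L. GTF2B, the only gene of TFIIB, had a peak of 571 bp (chr1:88891281-88891851) centred on its TSS. In TFIIE, which recruits TFIIH, GTF2E1 had a pair of PHF20 peaks (670 bp, chr3:120741806-120742475, and 725 bp, chr3:120742607-120743331) in the promoter region it shares with RABL3 on the opposite strand, and GTF2E2 had none. In TFIIF, which accompanies the polymerase, the large subunit gene GTF2F1 had a narrow peak (270 bp, chr19:6393620-6393889) and GTF2F2 had none. In TFIIH, which opens promoter DNA and also repairs it, PHF20 was at GTF2H1, GTF2H3 and GTF2H5 and not at GTF2H2, GTF2H2C or GTF2H4. The GTF2H5 peak was 323 bp wide (chr6:158168418-158168740) and lay downstream of the TSS of GTF2H5 and in the window of SERAC1. Of the TFIIH genes with other symbols, ERCC3 (the XPB translocase, 1036 bp) and MNAT1 (an assembly factor of its kinase, 604 bp) had a peak, while ERCC2, CDK7 and CCNH had none. PHF20L1 was found at 2 of the 6 GTF2H genes, beside 3.82% of all protein-coding genes, and at no other GTF2 gene.

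Outside the symbol families, 14 further genes of the same machinery were counted. PHF20 was at 7 of them, beside 20.7% of all protein-coding genes and 28.6% of those with a CpG-rich promoter. Besides TBP, CCNC, ERCC3 and MNAT1 these were TBPL1 (303 bp), a TBP relative, BTAF1 (1274 bp), which removes TBP from DNA, and DRAP1 (359 bp), a subunit of the NC2 repressor. PHF20 was not at TBPL2, CDK8, CDK19, ERCC2, CDK7, CCNH or DR1, the partner of DRAP1. PHF20L1 was at 1 of the 14, TBP, beside 3.82% of all protein-coding genes.

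**Figure D2:**
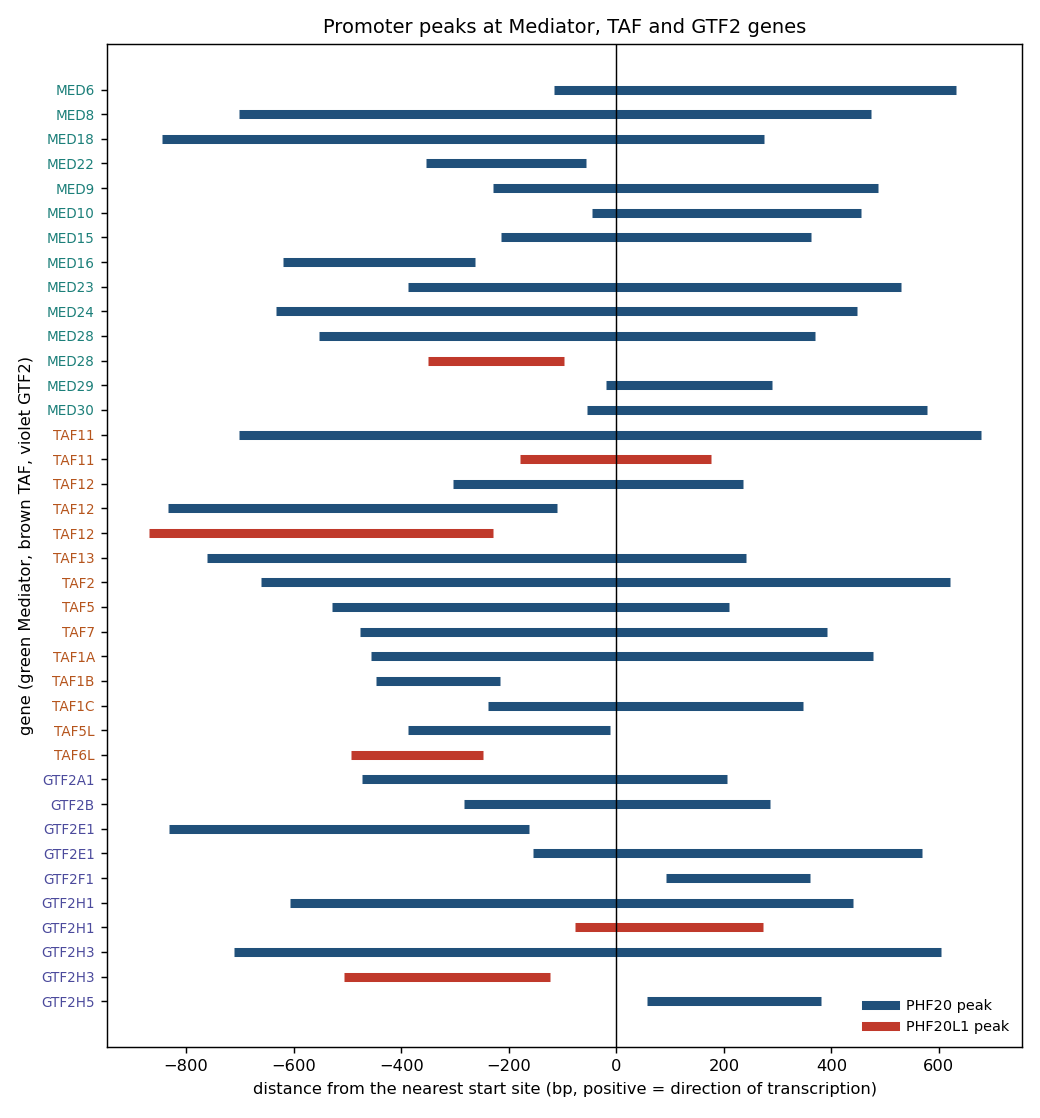
Extent of each PHF20 peak (blue) and PHF20L1 peak (red) at the bound genes, in bp from the nearest start site of the gene, with positive values in the direction of transcription. Of the 32 PHF20 peaks 24 cross the start site at 0, and at MED28, TAF11, GTF2H1 and GTF2H3 the red bar covers less than the blue bar of the same gene; the bars of 1 gene may be drawn from different start sites.

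Peak width is the only size the lists give. The 32 PHF20 peaks had a median width of 720 bp (95% order-statistic interval 571 to 922 bp) and ranged from 231 to 1381 bp, beside a median of 635 bp for all PHF20 peaks at coding promoters. Of the 32, 19 were wider than that median. The medians were 717 bp in the Mediator group, 738 bp in the TAF group and 674.5 bp in the GTF2 group, so that the groups differed by less than their own range. The 6 PHF20L1 peaks had a median width of 353.5 bp (248 to 641 bp), beside 323 bp for all PHF20L1 peaks at coding promoters. The PHF20 peaks at TAF11 and GTF2H3 were wider than 97.1% and 95.6% of PHF20 peaks at coding promoters, and those of MED28 and GTF2H1 were also above the median of the 32, while TAF12 had peaks near it or below it. The centres of the PHF20 peaks lay 134.5 bp from the nearest TSS in the median, with 19 upstream and 13 downstream, and in the TAF group 9 of 11 lay upstream. The side depends on the TSS used. From the canonical TSS the centres at TAF11 (73 bp) and TAF2 (53 bp) lay downstream, and no TAF centre moved the other way. The split over all PHF20 peaks at coding promoters was not computed.

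**Figure D3:**
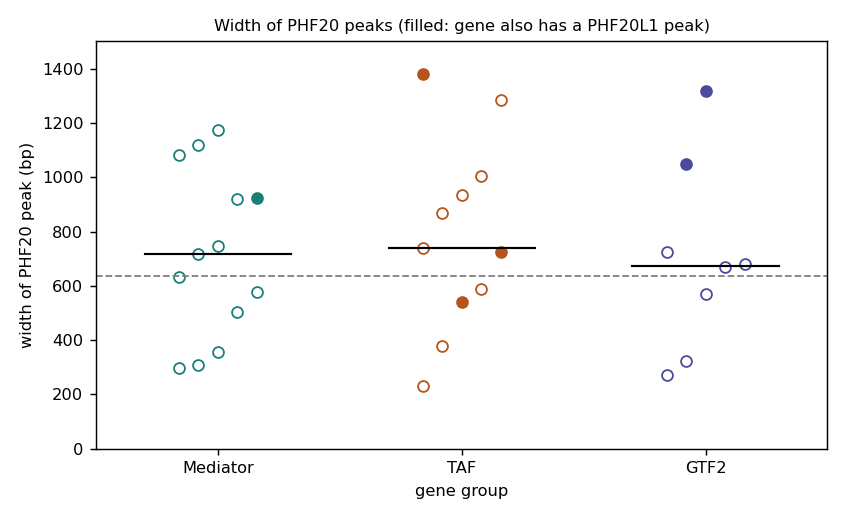
Width of each PHF20 peak in bp (y axis, from 0) by gene group, with 1 point per peak. Filled points belong to genes that also have a PHF20L1 peak, black lines are group medians (717, 738 and 674.5 bp), and the dashed line is the median of 635 bp over all PHF20 peaks at coding promoters. Widths spread from 231 to 1381 bp in overlapping ranges.

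The distance to the window edges shows how much the definition of a bound gene mattered. Measured by each bound gene's closest PHF20 peak, the genes farthest from a peak were MED16 (262 bp), TAF1B (216 bp), GTF2F1 (92 bp), GTF2H5 (58 bp) and MED22 (56 bp), all well inside the window. The further peaks of TAF12 and GTF2E1 are not counted here, since another peak of each gene crossed a TSS. Among the genes without a PHF20 peak the nearest were TAF8 (1469 bp), TAF6L (5449 bp), MED26 (5869 bp), TAF10 (6218 bp), TAF6 (6874 bp), MED1 (9362 bp) and MED31 (10239 bp). Only TAF8 was within 5000 bp. The 51 genes without a promoter peak had a median distance of 375570 bp, and TAF6L was the only one whose gene a PHF20 peak overlapped outside the window.

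Some of the bound promoters were shared with a neighbour, no more often than among all PHF20-bound genes. At 10 of the 30 PHF20-bound genes (33.3%) a peak also overlapped the window of another coding gene, beside 38.2% of all PHF20-bound genes. This was so for 4 of 13 Mediator genes, 2 of 10 TAF genes and 4 of 7 GTF2 genes. The neighbours included RPL7A (with MED22), ENPP3 (MED23), PAF1 (MED29), ANKS1A (TAF11), URB2 (TAF5L), RABL3 (GTF2E1), HPS5 (GTF2H1), EIF2B1 (GTF2H3) and SERAC1 (GTF2H5). For these genes a peak cannot be assigned to 1 of the pair. A noncoding gene had its window under 11 of the 32 PHF20 peaks (34.4%), beside 28.0% of all PHF20 peaks at coding promoters.

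The promoters were mostly CpG-rich. In the 250 bp before and 50 bp after the canonical TSS, 66 of the 81 genes (81.5%) met the criterion of CpG observed/expected of at least 0.6 and GC content of at least 50%, beside 65.5% of all coding genes. PHF20 was at 28 of these 66 (42.4%, 31.2% to 54.4%), beside 28.6% of all genes with such a promoter. It was at 2 of the 15 others (MED28 and TAF2), beside 5.71% of genes without such a promoter. MED28 and TAF2 missed the class only on GC content (49.3% and 47.3%), with CpG observed/expected of 0.784 and 0.962. PHF20L1 was at 5 of the 66 (7.58%, 3.28% to 16.5%), beside 5.09%. Within the CpG-rich promoters, CpG observed/expected had a median of 0.902 at PHF20-bound genes and 0.869 at the others, and GC content was 59.5% and 62.3%. Composition thus overlapped between bound and unbound genes of the set. Bound genes had a median of 6.5 annotated TSSs and the others 5, and with the canonical TSS alone PHF20 was at the same 30 genes.

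**Figure D4:**
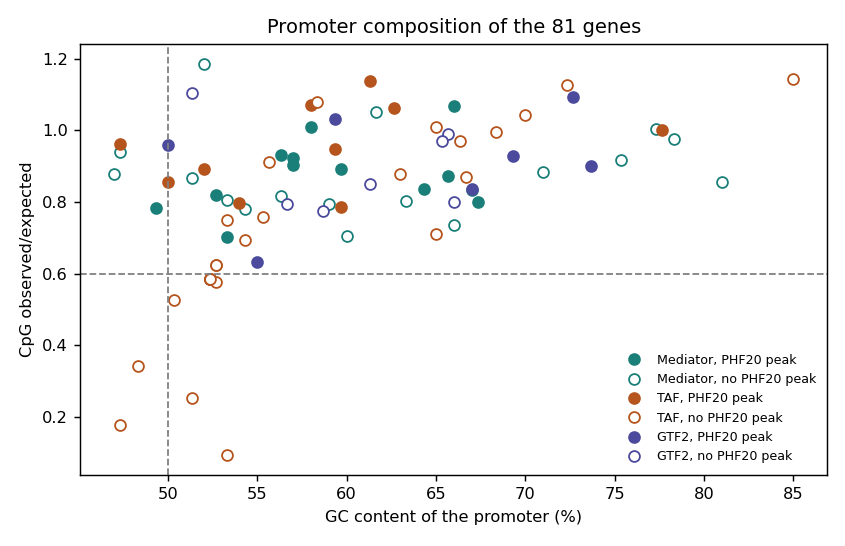
GC content (x axis, %) against CpG observed/expected (y axis, ratio) of the 300 bp promoter of each of the 81 genes, filled where PHF20 had a peak. Dashed lines are the limits of the CpG-rich class (50% and 0.6), and the open TAF points below 0.6 are TAF11L genes. Filled and open points overlap above the limits.

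The words were also counted in these 300 bp promoters, whether or not a peak was present. The ETS word was in 16 of the 81 promoters (19.8%), beside 6.14% of all coding promoters and 8.66% of the CpG-rich ones. It was in 10 of the 30 PHF20-bound promoters (33.3%), beside 16.5% of those of all PHF20-bound coding genes. It was also in 6 of the 51 others, which were MED7, MED11, MED17, GTF2A2, GTF2H2 and GTF2H2C. Among CpG-rich promoters it was in 10 of 28 bound and 5 of 38 unbound. By group it was in 7 Mediator, 4 TAF and 5 GTF2 promoters. The E-box was in 11 of the 81 promoters (13.6%), beside 8.76% of all coding promoters, and in 6 of the bound ones. The YY1 word AAGATGGCG was in 7 (8.64% beside 2.84%), namely MED1, MED16, MED18, MED25, TAF5, TAF6 and GTF2E1. The SP1 word GGGCGGG was in 35.8% of the promoters beside 47.1%, and in 12 of the 32 PHF20 peaks (37.5%) beside 54.7% of PHF20 peaks at coding promoters. The other words differed less from all promoters. The NFY word AGCCAAT was in 9.88% beside 8.82%, the CRE word TGACGTCA in 3.70% beside 2.69%, the NRF1 word GCATGCGC in 2.47% beside 4.27%, the TATA word TATAAAA in 2.47% beside 3.70%, and the ZNF143 word ACTACAAT in none beside 0.669%. No word contains another, and both strands were searched. The widest peak, at TAF11, lacked the ETS word, the next widest, at GTF2H3, held it, and that at TAF2 lacked it.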

How the data were processed

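HA ChIP-Seq was measured in 8 U2OS libraries. The authors mapped reads with Bowtie 1.1.2 to hg38, kept uniquely mapped, deduplicated reads, called peaks with MACS2 2.2.7.1 against input, removed blacklisted regions and dropped a PHF20 replicate whose calling failed. Peaks of the best replicate that overlapped those of the others made up the deposited lists of 4147 PHF20 and 723 PHF20L1 peaks, and the deposited values are positions in bp on hg38. Depth per library was not analysed here.

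Positions were counted from 1 and compared with GENCODE release 44 at an overlap of at least 1 bp, a later release than the authors used, and sequences were read from hg38. Unique 50-base words were counted in the windows of the canonical TSS over the primary chromosomes. Shares carry Wilson intervals at 95%, and a share of 0 at members on the X chromosome or in the kinase module is given with the upper limit of that interval. No significance test was run, since the lists hold no replicate values and the genes, gene lists and words were chosen with earlier results of these data known. Every gene is named by role, with coordinates for those bound by both, the 5 widest of each group, paralog pairs and those nearest the window's edge. The printed ETS sites, module comparisons, small RNA genes and unique-word classes were chosen after values were seen. Alternatives were other overlaps, TSS sets, windows, widths and gene subsets. Part of the detail at 1 gene is not reported here. The overlap step was tested on simulated data. The tools were samtools 1.23.1 and Python 3.11.15 with numpy 2.4.6, pysam 0.24.0, numba 0.67.0 and matplotlib 3.10.9.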

Additional observations from a re-analysis of the deposited data

How the results depend on the processing

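No paired analysis was possible because replicates were merged into 1 list per protein, and for the same reason no replicate could be left out. Of 124 values recomputed under alternatives, 118 stayed within 1.5 times the reported count. The TAF genes bound by both fell to 1 with the outermost TSS of each gene, where TAF11 was lost, and to 1 with the canonical TSS alone, where TAF12 was lost. With peaks of at least 300 bp, the Mediator genes bound by PHF20L1 fell to 0, as did those bound by both (0), because the MED28 peak of PHF20L1 is 254 bp wide. Requiring the peaks to overlap by at least 50% of each left 1 gene bound by both, TAF12. Counting TFIID subunits and their paralogs alone left 6 TAF genes bound by PHF20. Restricting the genes to those with at least 50% unique 50-base words, or leaving out the TAF11L genes, was added after the data were seen. Both remove only genes without a peak, so the counts could not change, while the TAF share of PHF20 moved from 27.0% to 34.5% and 41.7%. Their values among the 118 therefore say nothing about stability. The lists give no depth or height, so weak binding under the calling thresholds could not be detected.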
